A study of Mus musculus with 6 samples.

Results

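The features described here are 1273 intervals that lie across from protein-coding genes, on the opposite listed strand, and within 2 kb of a protein-coding gene start. They were taken from 34518 features (3.69%) in the authors' deposited table of noncoding transcription in the left atrium of the mouse. A feature was included where its only overlap with a GENCODE M21 (mm10) protein-coding gene body was on the opposite strand, where it touched no same-strand exon of a long noncoding RNA, small RNA or protein-coding gene, and where its nearest base lay within 2 kb of a protein-coding start. They made up 13.2% of the 9664 features that were antisense in this sense. All 1273 carried only an assembler identifier. The features were placed at 1113 gene starts on 20 chromosomes, 647 on the plus and 626 on the minus strand.

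Active mammalian promoters commonly initiate transcription in both directions, and transcripts can also begin inside a gene, on the strand opposite to it. Such RNAs are mostly short, often lack a poly(A) tail and are usually removed quickly by the nuclear exosome. They therefore tend to be scarce, and their level can reflect both how often they are made and how fast they are degraded. FOG2, encoded by Zfpm2, is a nuclear cofactor that binds GATA transcription factors and modulates their activity in the heart.

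The 2 groups were left atria of adult mice of the outbred CD1 stock, with genotype FOG2 overexpression (FOG2_OE, 3 libraries, named DTG animals in the protocol) or wild type (WT, 3 libraries, NTG animals). Both groups had gone without doxycycline for 1 week, and the promoter that drives the extra FOG2 is not given in the sources used here. RNA was depleted of ribosomal and of polyadenylated RNA, and the library kit in the labels (TruSeq RNA) is a kind that keeps no record of strand. Strand here is therefore the one the authors list, and reads of an antisense transcript cannot be told apart from reads of the gene itself. The labels do not say that replicates came from separate animals, so that p-values measure only the spread between these samples.

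The effective libraries implied by the table ranged from 71180401 to 84907173 reads. The columns for single samples held values fitted by the authors, which within a group vary only with library size. They show no spread between replicates, so that whether single libraries overlap cannot be seen, and each level below is 1 fitted value per group in CPM, that is, in fitted counts scaled to the library size. As a check of the labels, a feature inside Zfpm2 that is not among the 1273, MSTRG.29831, stood at 416 CPM in FOG2_OE and 0.484 CPM in WT. Of 9 cardiomyocyte markers set for the atrium (Myl7, Myl4, Sln, Nppa, Myh6, Tnnt2, Actc1, Ryr2 and Dkk3), 7 had a listed feature at their locus, all but Nppa and Myh6. Several of them, such as Tnnt2, Actc1, Ryr2 and Myh6, are not confined to the atrium. Of 3 ventricular markers (Myl2, Myl3 and Irx4) 0 had one. The table was made for noncoding RNA, and features at these loci do not measure expression of the genes.

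The promoter sequences of 6 genes whose features were called different are printed first, since the features lie across them or just inside the genes they drive. Each is the 250 bases before the RefSeq start of the gene (build GRCm38.p6), written 5′ to 3′ on the strand of the gene. The first 4 were picked by a fixed rule from the calls with the smallest adjusted p, and those of Mfn2 and Myl7 were added after their values had been seen. Capitals mark matches, on either strand, to 5 motifs: the GATA motif AGATAA, the T-box motif AGGTGT, the GC box GGGCGG, the TATA box TATAAA and the E-box CACGTG.
Polr1e: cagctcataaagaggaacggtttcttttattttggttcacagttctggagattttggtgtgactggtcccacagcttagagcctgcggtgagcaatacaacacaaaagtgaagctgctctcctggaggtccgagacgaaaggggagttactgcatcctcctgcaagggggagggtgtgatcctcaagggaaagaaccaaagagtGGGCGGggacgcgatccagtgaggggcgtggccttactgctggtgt
Sulf2: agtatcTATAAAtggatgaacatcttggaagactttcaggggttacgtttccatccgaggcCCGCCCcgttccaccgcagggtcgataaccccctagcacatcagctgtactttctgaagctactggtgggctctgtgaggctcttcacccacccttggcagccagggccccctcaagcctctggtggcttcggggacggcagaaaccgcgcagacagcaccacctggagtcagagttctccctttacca
Tnfsf18: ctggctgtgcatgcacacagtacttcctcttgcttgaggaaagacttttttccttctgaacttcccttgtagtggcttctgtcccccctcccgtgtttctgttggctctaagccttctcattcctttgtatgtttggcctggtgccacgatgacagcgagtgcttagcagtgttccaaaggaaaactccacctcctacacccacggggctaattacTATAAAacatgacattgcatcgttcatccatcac
Pigr: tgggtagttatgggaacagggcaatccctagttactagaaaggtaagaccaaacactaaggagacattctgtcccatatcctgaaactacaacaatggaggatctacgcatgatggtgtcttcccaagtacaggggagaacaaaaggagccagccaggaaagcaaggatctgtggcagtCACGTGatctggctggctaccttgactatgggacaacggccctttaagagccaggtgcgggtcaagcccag
Mfn2: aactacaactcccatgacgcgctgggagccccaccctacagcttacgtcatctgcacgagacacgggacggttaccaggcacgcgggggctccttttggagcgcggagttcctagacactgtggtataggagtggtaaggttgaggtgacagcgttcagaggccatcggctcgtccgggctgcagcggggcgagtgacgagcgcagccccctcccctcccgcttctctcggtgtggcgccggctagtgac
Myl7: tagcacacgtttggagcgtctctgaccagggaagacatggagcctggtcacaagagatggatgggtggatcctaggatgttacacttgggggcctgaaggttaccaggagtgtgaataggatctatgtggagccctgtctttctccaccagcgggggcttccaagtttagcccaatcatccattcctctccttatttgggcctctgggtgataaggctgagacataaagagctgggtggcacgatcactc
They come from chr4:45018359-45018608 (Polr1e, plus strand), chr2:166155684-166155933 (Sulf2, minus), chr1:161494407-161494656 (Tnfsf18, plus), chr1:130826434-130826683 (Pigr, plus), chr4:147904699-147904948 (Mfn2, minus) and chr11:5898783-5899032 (Myl7, minus). Called features covered all 250 printed bases of Myl7, 195 of those of Tnfsf18 and 81 of those of Mfn2, and 0 of those of Polr1e, Sulf2 and Pigr, whose features begin and end inside the gene. Counting from the start of the gene, the TATA match of Tnfsf18 began at position -34, under its antisense feature, and the GC box of Polr1e at -46. Sulf2 held a TATA match at -244 and a GC box match on the other strand at -189, and Pigr an E-box match at -71. None of the 5 motifs, in the exact letters given above, was found in the printed bases of Mfn2 and Myl7. Other forms of these motifs were not searched, so that their absence is not shown.

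Over the 300 bases from 250 before to 50 after the start, AGATAA was present in 9.81% of the protein-coding promoters that could be matched by gene, AGGTGT in 12.8%, GGGCGG in 47.9%, TATAAA in 13.1% and CACGTG in 8.08%. Promoters were matched for 16896 of 21924 protein-coding genes (77.1%) and for 872 of the 1113 starts (78.3%). Since under 80% of either had a sequence, base composition and motif shares at the starts were not compared with those of all genes.

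The features were short and scarce, as was the table as a whole, and most lay just inside the gene. Their median width was 280 bp, with a range of 101 to 25336 bp. All features of the table had a median width of 238 bp, and antisense features farther than 2 kb from a start 213 bp. By position, 329 spanned the start itself, 840 lay inside the gene they oppose, and 104 were near the start of another gene only. The listed 3′ end of a feature lay a median of 220 bp, and the listed 5′ end a median of 645 bp, downstream of the start of the gene it opposes. Transcripts that run away from a start without overlapping its gene are not part of this set. An exon of the opposing gene was overlapped by 1041 of the 1273 (81.8%), compared with 49.1% of antisense features more than 2 kb from a start. The rule sets part of this difference, since a gene start lies in an exon and all 329 features that spanned a start overlapped an exon. The median level stood at 0.101 CPM in FOG2_OE and 0.107 CPM in WT, and 726 features (57.0%) averaged under 10 fitted counts per library. Averaged over the 2 groups, the median level was 0.101 CPM. It was 0.0925 CPM for all features and 0.0861 CPM for antisense features farther than 2 kb from a start, so that low levels were not particular to this set. At this depth the standard error implied by the authors' test had a median of 0.71 on the log2 scale. It is the SE given with each fold change below. In sum the features held 570 CPM in FOG2_OE and 586 CPM in WT.

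With FOG2 overexpression, features at gene starts were called different in both directions, 18 higher and 35 lower in FOG2_OE (authors' deposited table, likelihood ratio test with Benjamini-Hochberg adjusted p under 0.05), or 53 in all, where 5.81% of all features were called. The share called higher was 1.41%, against 1.16% of all features, and the share called lower was 2.75%, against 4.65% of all features. Both shares are near or below the background of the table. From the authors' deposited table, the log2 fold changes had a median of -0.05 at gene starts, -0.21 for antisense features farther than 2 kb from a start and -0.21 for all features. Fold changes lay below 0 for 674 of the 1273 (52.9%) and for 60.6% of all features.

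The split of the calls depended on the scale between the groups. With the median of all features set to 0, a shift of 0.21 on the log2 scale, the recomputed calls at gene starts were 32 higher and 26 lower, and the backgrounds were 1.72% and 3.84%. The authors' test takes the dispersion of each feature as known. Read against an F distribution (10 residual degrees of freedom), its likelihood ratio left 2 features called higher and 4 lower (backgrounds 0.203% and 1.07%). At an unadjusted p under 0.05 in the authors' deposited table, 66 of the 1273 features at gene starts were higher and 113 lower. The share of all features at that threshold was not counted.

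**Figure D1:**
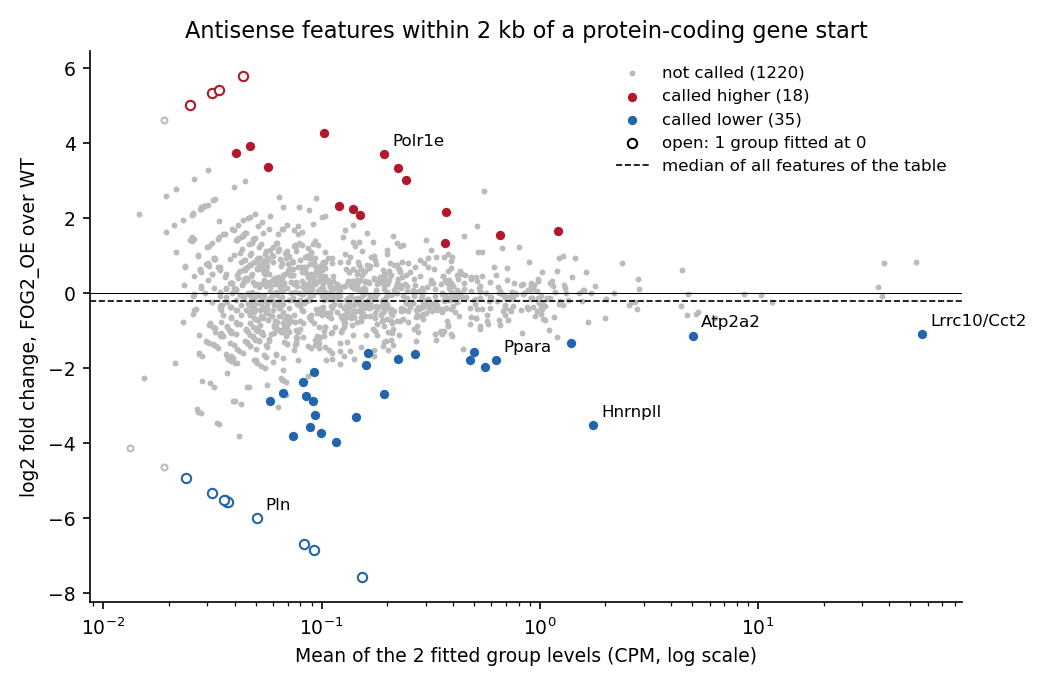
Log2 fold change of FOG2_OE over WT (y axis) against mean fitted level in CPM (x axis, log scale) for the 1273 antisense features at gene starts, with 18 called higher in red and 35 called lower in blue. Open circles have 1 group fitted at 0, where the fold change depends on the authors' prior count and is no bound, and most calls lie at levels under 1 CPM.

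Calls were then counted by distance from the start, beside shares of 1.16% higher and 4.65% lower over all features. In the authors' deposited table the 975 features within 1 kb of a start had 17 higher (1.74%) and 20 lower calls (2.05%) and a median log2 fold change of -0.0036. Those 1 to 2 kb from a start, 298 in all, had 1 higher (0.336%) and 15 lower calls (5.03%) and a median of -0.28, so that their lower calls were near the share of the table. Among antisense features 2 to 5 kb away, 6 of 944 were higher (0.636%) and 22 lower (2.33%), with a median of -0.20. From 5 to 10 kb 4 of 1392 were higher (0.287%) and 45 lower (3.23%), and beyond 10 kb 69 of 6055 were higher (1.14%) and 292 lower (4.82%). With the median of all features set to 0, the recomputed calls were 31 higher and 15 lower of the 975 within 1 kb. They were 1 and 11 of the 298 from 1 to 2 kb, where 1.72% and 3.84% of all features were called. No test of the difference between these distances was made.

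**Figure D2:**
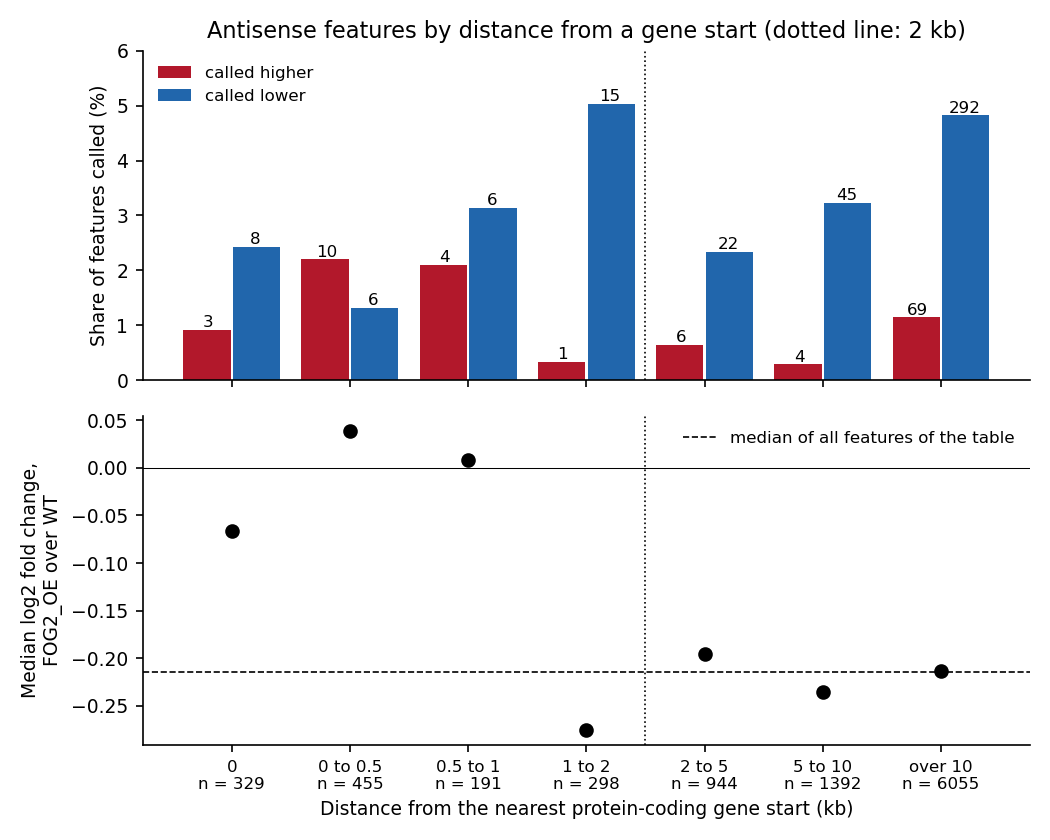
Share of antisense features called higher or lower (top, %, number called above each bar) and median log2 fold change (bottom) by distance from the nearest protein-coding start, with the number of features under each group. Higher calls peak at 10 of 455 features within 0.5 kb of but not over a start, and lower calls reach 15 of 298 from 1 to 2 kb.

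Calls were also counted by overlap with an exon of the opposing gene, with no test of the difference. In the authors' deposited table the 1041 features over an exon had 16 higher and 16 lower calls (1.54% each) and a median log2 fold change of -0.02. The 232 features over no exon had 2 higher and 19 lower calls (0.862% and 8.19%, where all features had 1.16% and 4.65%) and a median of -0.28. Farther than 2 kb from a start the same split gave 32 higher and 118 lower calls of 4123 over an exon, and 47 higher and 241 lower of 4268 over no exon, with medians of -0.17 and -0.29. With the median of all features set to 0, calls at gene starts were 29 higher and 11 lower of the 1041 over exons. They were 3 higher and 15 lower of the 232 over none, where 1.72% and 3.84% of all features were called. The reads do not show strand, and the part that reads of the opposing gene have in features over its exons was not tested.

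The feature with the smallest adjusted p was lower in FOG2_OE and lay in Hnrnpll, which encodes an RNA-binding protein that regulates alternative splicing. MSTRG.38792 (chr17:80055791-80061361, plus strand) lies 973 bp inside the gene and overlaps none of its exons. Its fitted counts were 22.3, 20.3 and 23.7 in the FOG2_OE libraries and 229, 252 and 265 in the WT libraries. All 3 FOG2_OE values were lower, as a group fit requires. The level stood at 0.280 CPM in FOG2_OE and 3.22 CPM in WT, an 11.5-fold difference (a log2 change of -3.52, SE 0.46, with adjusted p = 1.3e-10, per the authors' deposited table). It passed both with the median of all features set to 0 (adjusted p = 1.4e-09) and with the F distribution (adjusted p = 0.0092).

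The feature called lower with the highest CPM stood next to a heart gene. MSTRG.10560 (chr10:117046869-117054026, plus strand) overlaps Cct2, a subunit of a cytosolic chaperonin, from the opposite strand, and begins 101 bp after the end of Lrrc10 on the same strand. Lrrc10 encodes a leucine-rich repeat protein of cardiac muscle, and its start is the one within 2 kb. Fitted counts were 2885, 2624 and 3074 in the FOG2_OE libraries and 5488, 6045 and 6341 in the WT libraries. The level stood at 36.2 CPM in FOG2_OE and 77.1 CPM in WT, a 2.13-fold difference (a log2 change of -1.09, SE 0.23, with adjusted p = 2.8e-04, per the authors' deposited table). With the F distribution it did not pass (adjusted p = 0.064). Whether its reads continue from Lrrc10 was not tested.

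Features at or near genes of calcium handling and contraction were also among the lower calls. Pln encodes phospholamban, the inhibitor of the calcium pump of the sarcoplasmic reticulum. MSTRG.7947 (chr10:53336389-53336540, plus strand) lies 1127 bp from the start of Pln but opposes only Cep85l, not Pln. It was fitted at 0 in FOG2_OE and at 0.101 CPM in WT. That is at least 7.97-fold lower, taking 3 counts in the group as the floor (with adjusted p = 9.5e-04, per the authors' deposited table). The pump itself is encoded by Atp2a2, where MSTRG.66587 (chr5:122501569-122502201, plus strand) lay 24 bp inside the gene, over an exon. Its fitted counts were 251, 228 and 268 in FOG2_OE and 492, 541 and 568 in WT, or 3.15 and 6.91 CPM (a log2 change of -1.13, SE 0.36, with adjusted p = 0.035, per the authors' deposited table). Myl7 encodes the regulatory myosin light chain of the atrium, and MSTRG.11513 (chr11:5897751-5899178, plus strand), which spans its start, stood at 0.789 CPM in FOG2_OE and 1.98 CPM in WT (a log2 change of -1.33, SE 0.43, with adjusted p = 0.043, per the authors' deposited table). The Atp2a2 and Myl7 features did not pass with the median of all features set to 0 (both adjusted p = 0.12), while that near Pln did (adjusted p = 0.0010). None of the 3 passed with the F distribution.

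Lower calls also lay at Ppara and Mfn2, genes of fuel use and of mitochondria. Ppara encodes a nuclear receptor that drives fatty acid oxidation genes, and MSTRG.31550 (chr15:85733848-85735240, minus strand) spans its start. Its fitted counts were 22.5, 20.4 and 24.0 in FOG2_OE and 69.2, 76.2 and 79.9 in WT, or 0.282 and 0.972 CPM (a log2 change of -1.78, SE 0.44, with adjusted p = 0.0024, per the authors' deposited table). Mfn2 encodes mitofusin 2, which fuses mitochondria, and was named after its value had been seen. MSTRG.62085 (chr4:147903221-147904779) spans its start and stood at 0.228 CPM in FOG2_OE and 0.890 CPM in WT (a log2 change of -1.96, SE 0.48, with adjusted p = 0.0027, per the authors' deposited table).

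Other lower calls had little or no signal left in FOG2_OE. Tnfsf18, which encodes the ligand of GITR, a costimulatory receptor of T cells, had 2 called features, MSTRG.5021 across the start (chr1:161494462-161495007) and MSTRG.5023 (chr1:161496274-161496613) 1619 bp inside. MSTRG.5023 was fitted at 0 in FOG2_OE and 0.184 CPM in WT, at least 14.6-fold lower (with adjusted p = 2.4e-06, per the authors' deposited table). MSTRG.5021 had 3.0 counts in FOG2_OE and 51.2 in WT, a 17.5-fold difference with a 95% counting interval of 5.62 to 87.1. At Pigr, which encodes the receptor that carries polymeric antibodies across epithelia, MSTRG.3895 (chr1:130827910-130828180) was fitted at 0 and 0.165 CPM, at least 13.1-fold lower (with adjusted p = 3.2e-06, per the authors' deposited table). MSTRG.11578, across the start of the predicted gene Gm11983, was fitted at 0 and 0.305 CPM, at least 24.1-fold lower (with adjusted p = 6.6e-05, per the authors' deposited table). These 3 features at 0 passed with the F distribution as well (adjusted p = 0.028, 0.029 and 0.048).

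The remaining lower features named by the rule lay inside genes and over no exon. Gucy1a1 encodes a subunit of the nitric oxide receptor guanylate cyclase, and MSTRG.53267 there stood at 0.0254 CPM in FOG2_OE and 0.263 CPM in WT (a log2 change of -3.29, SE 0.77, with adjusted p = 1.3e-04, per the authors' deposited table). MSTRG.2297 in Tns1, the gene of the focal adhesion protein tensin 1, had 3.0 counts against 43.0, a 14.9-fold difference (counting interval 4.69 to 73.8). MSTRG.9579, in Gm49358 and near the start of Nt5dc3, had 2.0 counts against 32.3, a 16.6-fold difference (counting interval 4.17 to 141). MSTRG.66763 in Rilpl1 stood at 0.0505 and 0.337 CPM (a log2 change of -2.70, SE 0.69, with adjusted p = 0.0023, per the authors' deposited table). Of the 35 lower features, 10 were fitted at 0 in FOG2_OE.

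The higher calls included 2 features just inside Polr1e, which encodes a subunit of RNA polymerase I. Both overlap an exon of the gene, and their reads cannot be told apart from reads of Polr1e. MSTRG.58248 (chr4:45019152-45022851, minus strand), the higher feature with the smallest adjusted p, had fitted counts of 28.7, 26.1 and 30.6 in FOG2_OE and 1.85, 2.03 and 2.13 in WT. The level stood at 0.361 CPM against 0.0259 CPM, a 13.9-fold difference (a log2 change of 3.72, SE 0.74, with adjusted p = 1.4e-06, per the authors' deposited table). MSTRG.58247 (chr4:45018690-45018975), between it and the start, had 46.8 counts in FOG2_OE and 2.0 in WT, a 23.0-fold difference with a counting interval of 6.02 to 195 (with adjusted p = 8.8e-05, per the authors' deposited table). The 2 lie in 1 gene on 1 listed strand, and no test was made of whether they belong to 1 transcript.

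Features inside Sulf2 and Brd7, each over an exon of the gene, were also called higher. Sulf2 encodes an extracellular sulfatase that trims heparan sulfate, and MSTRG.50646 (chr2:166154043-166154773, plus strand) had fitted counts of 34.8, 31.7 and 37.1 in FOG2_OE and 3.71, 4.08 and 4.28 in WT. Its level stood at 0.437 CPM against 0.0521 CPM, an 8.40-fold difference (a log2 change of 3.03, SE 0.64, with adjusted p = 7.2e-05, per the authors' deposited table). With the F distribution MSTRG.58248 and MSTRG.50646 were the 2 higher features that passed (adjusted p = 0.026 and 0.048). Brd7 encodes a bromodomain subunit of the PBAF chromatin remodelling complex, and MSTRG.81586 (chr8:88361240-88361961, plus strand) stood at 0.609 CPM in FOG2_OE and 0.135 CPM in WT (a log2 change of 2.16, SE 0.46, with adjusted p = 1.5e-04, per the authors' deposited table).

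Of the remaining higher features, those at Hs2st1, a heparan sulfate sulfotransferase gene (MSTRG.56091, at least 5.21-fold higher), and at Cpne5 (MSTRG.36780, at least 4.88-fold) were fitted at 0 in WT. At Cp, the gene of the copper carrier ceruloplasmin, MSTRG.51982 stood at 0.410 CPM in FOG2_OE and 0.0393 CPM in WT (a log2 change of 3.33, SE 0.99, with adjusted p = 0.022, per the authors' deposited table). At Ppm1e, a protein phosphatase gene, MSTRG.15391 stood at 0.245 and 0.0564 CPM (a log2 change of 2.09, SE 0.65, with adjusted p = 0.022, per the authors' deposited table). The feature called higher with the highest CPM, MSTRG.51893 across the start of 1700064H15Rik, stood at 1.85 CPM in FOG2_OE and 0.585 CPM in WT (a log2 change of 1.66, SE 0.48, with adjusted p = 0.019, per the authors' deposited table). MSTRG.78329, near the start of Armc5, had 24.9 counts against 2.0, a 12.2-fold difference (counting interval 3.05 to 106). Among the features of this paragraph, that at Cpne5 overlaps no exon of the gene it opposes, while all the others do.

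**Figure D3:**
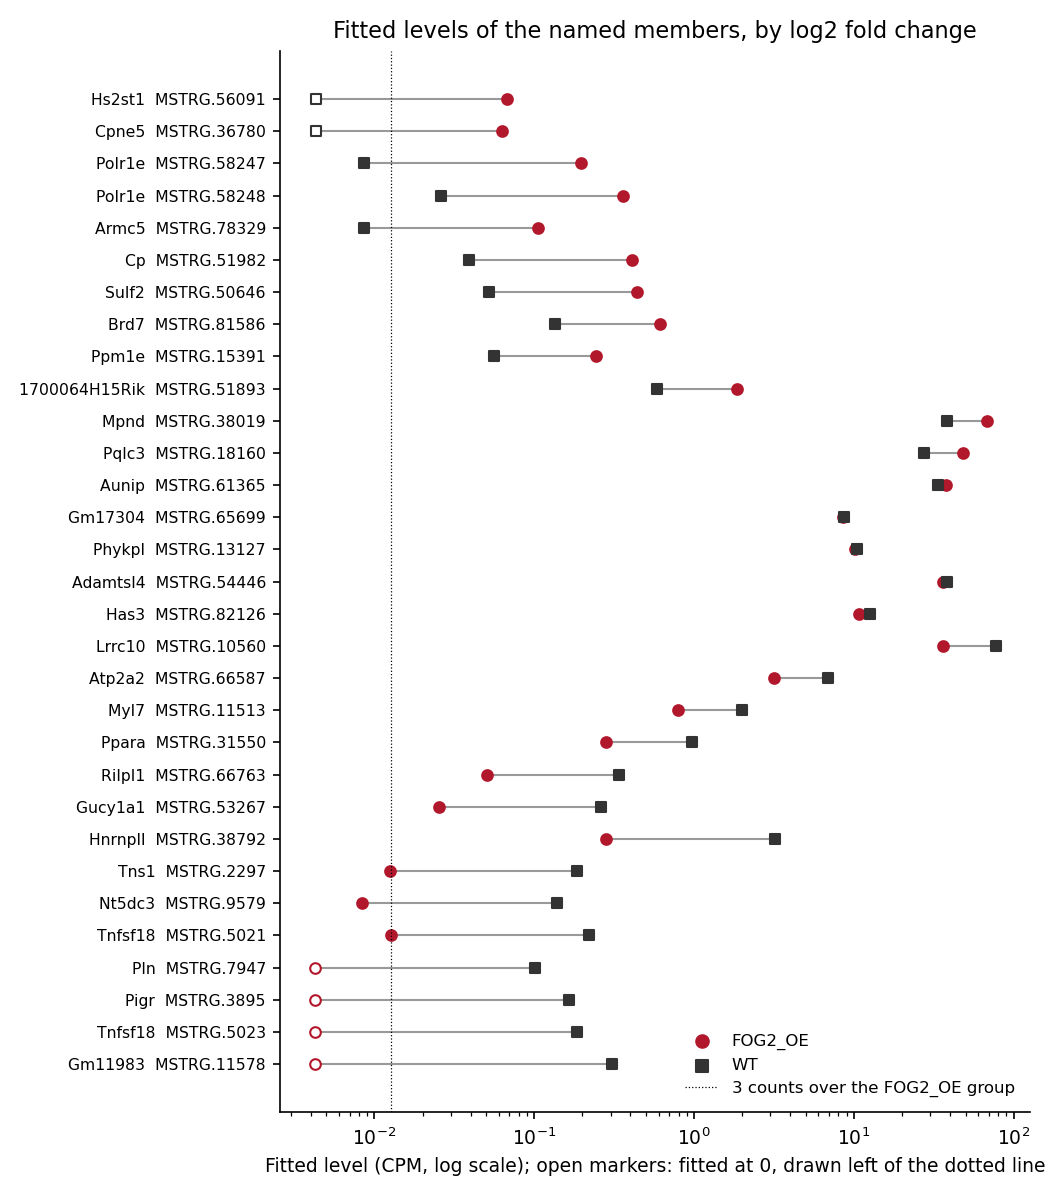
Fitted level in CPM (x axis, log scale) of each feature named by rule and reported here, labelled with the gene of the nearest start, in FOG2_OE (red circles) and WT (dark squares), ordered by log2 fold change. Open markers are groups fitted at 0, drawn left of the dotted line at 3 counts over the group, and the features at 10 CPM or more have the 2 markers farthest apart at Mpnd, Pqlc3 and Lrrc10.

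Several features could share a start, and called neighbours moved the same way. Of the 1113 starts, 146 had more than 1 feature, and at 100 of these (68.5%) all their fold changes had 1 sign. The 53 called features lay at 49 starts. Polr1e had 2 higher ones, and Tnfsf18, Rgs13 and Trim43a each had 2 lower ones, so that none of these 4 starts was called in both directions. Rgs13 encodes a regulator of G protein signalling, and with Trim43a it was named after its values had been seen. MSTRG.4525 in Rgs13 was fitted at 0 in FOG2_OE, at least 5.71-fold lower, and MSTRG.4524 had 3.0 counts against 38.2, a 13.1-fold difference (counting interval 4.11 to 65.6).

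The signal at gene starts was concentrated in a few long features, of which 1 was called. The 8 with the highest mean CPM held 44.9% of the summed level in FOG2_OE and 42.0% in WT, and 7 of the 8 were longer than 5 kb, as were 12 of all 1273. A position after the end of a gene on the same strand, within 2 kb, was found for 5 of the 8 and for 113 of all 1273 (8.88%). These were MSTRG.10560 after Lrrc10, MSTRG.54446 302 bp after Mcl1, MSTRG.82126 142 bp after Chtf8, MSTRG.65699 480 bp after Zfp644 and MSTRG.18160 1189 bp after Rock2. Whether these features extend the transcripts of those genes was not tested.

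MSTRG.10560 was the called feature of the 8. MSTRG.54446, across the start of Adamtsl4 and 25336 bp long, stood at 36.0 CPM in FOG2_OE and 38.0 CPM in WT (a log2 change of -0.08, SE 0.21, with adjusted p = 0.91, per the authors' deposited table). MSTRG.61365, inside Aunip, stood at 37.4 and 33.6 CPM (a log2 change of 0.15, SE 0.23, per the authors' deposited table). The features at Has3, a hyaluronan synthase gene, Phykpl and Gm17304 were listed at -0.23, -0.04 and -0.01 (log2) by the authors' deposited table, and none was called. MSTRG.18160 at Pqlc3 stood at 48.2 and 27.5 CPM and missed the threshold (a log2 change of 0.81, SE 0.27, with adjusted p = 0.056, per the authors' deposited table), but passed with the median of all features set to 0 (adjusted p = 0.0078). MSTRG.38019, a 107 bp feature in Mpnd, stood at 68.1 and 38.2 CPM (a log2 change of 0.83, SE 0.38, with adjusted p = 0.22, per the authors' deposited table). Per kb of length it was far above the others, at 637 CPM per kb in FOG2_OE and 357 in WT, where the median feature had 0.359 CPM per kb. On the same scale the features at Atp2a2 (4.98 in FOG2_OE and 10.9 in WT) and Lrrc10 (5.06 and 10.8) were the highest of those called.

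Features at genes of 15 lists of cardiac, metabolic, cell type and RNA decay genes were then counted, and few were called. Over all features of the table, 1.16% were called higher and 4.65% lower, and no list was tested against these shares. Among 14 features at rhythm channel and calcium handling genes, 2 were lower (at Atp2a2 and near Pln) by the authors' deposited table. Features at the ryanodine receptor gene Ryr2 (-0.47), the calcium buffer gene Casq2 (-0.80) and the sarcolipin gene Sln (-1.46) did not pass. Sarcomere genes had 16 features, 0 higher and 1 lower (Myl7), with a median of 0.06, and those at Ttn (-0.76), Mybpc3 (-1.83) and Tnni3 (-0.03) did not pass. Genes named for atrial fibrillation loci had 11 features, 0 higher and 1 lower (the same feature near Pln), with a median of -0.76.

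Energy metabolism genes had 19 features, of which 0 were higher and 1 (Ppara, 5.26%) lower in the authors' deposited table, a share near the 4.65% of all features. Fold changes lay below 0 for 16 of the 19 (84.2%), against 60.6% of all features. Their median was -0.44, against -0.21 over all features and -0.05 over those at gene starts. The 19 features lay at 15 genes of the list, so that some genes count more than once. Those at the lipoprotein lipase gene Lpl (-1.37, adjusted p = 0.077) and at Idh3b, a subunit of isocitrate dehydrogenase (MSTRG.49135, -2.36, adjusted p = 0.088), came nearest to the threshold among the rest. Ribosomal protein genes had 7 features, 6 of them above 0, with a median of 0.38 and 0 calls.

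Stress and early response genes had 8 features and 0 calls, with a median of 0.40, and that at Ankrd1, a strain-responsive muscle gene, stood at 5.44 CPM in FOG2_OE and 3.51 CPM in WT (a log2 change of 0.63, per the authors' deposited table). Cardiac transcription factor genes had 3 features and 0 calls. Among them was Zfpm2 itself, where MSTRG.29829 lay 204 bp inside the gene, over an exon. It stood at 1.62 CPM in FOG2_OE and 0.844 CPM in WT (a log2 change of 0.94, SE 0.41, with adjusted p = 0.19, per the authors' deposited table). Its reads cannot be told apart from reads of Zfpm2, the overexpressed gene. Genes of nuclear RNA decay and termination had 6 features, 0 calls and a median of -0.15.

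Markers of other cell types gave 0 calls at gene starts on the deposited scale. Fibroblast and matrix genes had 12 features with a median log2 fold change of 0.41, those at Col12a1 (3.0, adjusted p = 0.054), Col1a1 (2.22, adjusted p = 0.081) and Tgfb1 (MSTRG.74195, -2.20, adjusted p = 0.083 in the authors' deposited table) lying farthest from 0. With the median of all features set to 0, those at Col12a1 (MSTRG.86332, adjusted p = 0.032) and Col1a1 (MSTRG.15677, adjusted p = 0.045) were called higher. Endothelial genes had 3 features (median -0.70), macrophage and leukocyte genes 7 (-0.01), epicardial genes 3 (-0.04), smooth muscle genes 1 and neuronal genes 0, while cell cycle genes had 3 (-0.14). Levels were also summed over all listed features at marker loci, at starts or not. For the cardiomyocyte markers, not all of them confined to the atrium, the summed level stood at 41.9 CPM in FOG2_OE and 71.2 CPM in WT. For smooth muscle and pericyte markers it was 19.3 and 28.2 CPM (12 of 15 genes with a feature). It was 43.5 and 47.0 CPM for fibroblast and matrix genes (29 of 45), 35.9 and 37.1 for endothelial (18 of 27), 4.68 and 4.42 for macrophage and leukocyte (9 of 27), 2.71 and 2.33 for epicardial (6 of 12) and 3.08 and 3.42 for neuronal genes (6 of 17). In these bulk samples fewer cells of a type and less RNA per cell cannot be told apart. The part of cell makeup in the lower features at Atp2a2, Myl7 and Ppara and near Pln was not tested.

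**Figure D4:**
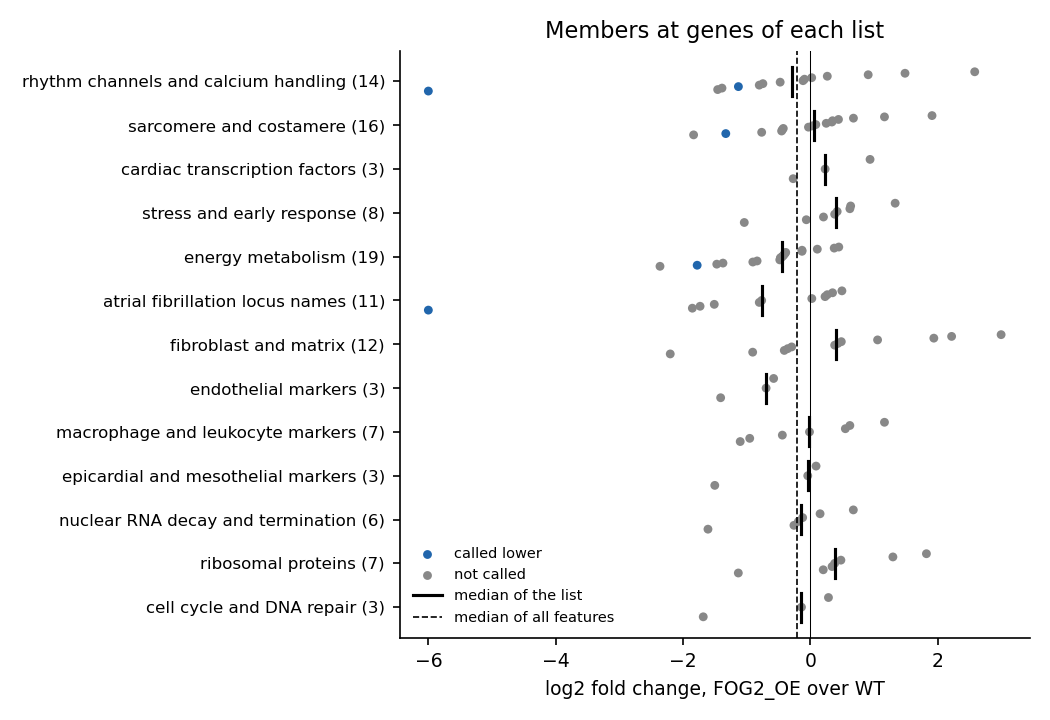
Log2 fold change of FOG2_OE over WT (x axis) for the features at genes of each list with at least 3 features, the number in brackets, called features in colour, the median of each list as a bar and that of all features as a dashed line. The 19 energy metabolism features have a median of -0.44. The leftmost point in the first and the atrial fibrillation list is the same feature near Pln, fitted at 0 in FOG2_OE.

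The 2 kb limit fell within a continuous range of distances. Just inside it, MSTRG.11507 in Aebp1 and MSTRG.87786 in Map4, both 2000 bp from the start, were both listed at 0.49 (log2) by the authors' deposited table. Just outside, MSTRG.44319 at Nanos1 (2005 bp) and MSTRG.54754 at Hsd3b3 (2016 bp) had -0.12 and -0.29.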

How the data were processed

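The data were 6 libraries of left atrial RNA (3 FOG2_OE, 3 WT), grouped by the genotypes in the labels. The submitters' processing notes name mm10 as the build and, without roles, STAR, HTSeq (0.6.0), deepTools and edgeR. The authors deposited 1 table with, for each feature, log2 values (fold change and CPM), a score (the likelihood ratio) and p-values, raw and adjusted. Its 6 sample columns were constant multiples of each other within a group (largest relative spread 1.8e-14). They were therefore read as fitted values, so that no count test was possible and the authors' test was used.

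Effective library sizes came from 718 features above 300 fitted counts. The negative binomial dispersion that gives each deposited likelihood ratio was solved and gave implied standard errors and calls with the median of all features set to 0. Floors (3 counts over a group) and 95% counting intervals cover counting error only. The steps were tested on simulated data. Recomputed calls at the deposited scale were the same for all 34518 features, which the solving of dispersions fixes. Features were placed on GENCODE M21 with starts counted from 1, and distance was taken from the nearest base to the 5′ end of the gene record. Promoters came from a RefSeq table of GRCm38.p6. The F distribution used 10 residual degrees of freedom, more than 6 libraries in 2 groups leave, to allow for sharing between features. Other alternatives were the threshold, a filter on fitted counts, the window, exon overlap and the choice of start. Computation used pandas 2.3.3, scipy 1.17.1 and numpy 2.4.6 in Python 3.11.15.

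The set, the 15 gene lists and the rule for named features were chosen with earlier results of these data known. The rule named the 12 higher and 12 lower called features with the smallest adjusted p, the 8 with the highest mean CPM, every called feature at a gene of a list, and 2 features on each side of the 2 kb limit. Of these, 2 features called higher are not reported here, and the list with the gene of 1 of them is given, and drawn, without it.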

Additional observations from a re-analysis of the deposited data

How the results depend on the processing

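No paired analysis was possible because the sample columns hold fitted values and not counts. For the same reason the replicate block and leaving out each replicate in turn were not run. The counts of 18 higher and 35 lower became 32 and 26 with the median of all features set to 0 (backgrounds 1.72% and 3.84%). With the F distribution they were 2 and 4 (backgrounds 0.203% and 1.07%). At an adjusted p under 0.01 they were 5 and 19, and the share of all features was not counted. Among the 547 features with at least 10 fitted counts on average, 11 and 18 were called (2.01% and 3.29%) with p-values adjusted again. With the deposited p-values 1.65% and 2.74% of these 547 were called, against 1.56% and 6.38% of all features of at least 10 fitted counts. The share called lower was 1.79% within 0.5 kb of a start and 8.19% over no exon. The median log2 fold change was -0.12 within 5 kb and -0.28 over no exon. Other windows, other starts and the choice of 1 feature per start moved these values by less. With the median of all features set to 0, the fold changes of the abundant features at Adamtsl4 (0.14), Phykpl (0.17) and Gm17304 (0.20) turned from below to above 0, those at Atp2a2 and Myl7 no longer passed and that at Pqlc3 did. Of the 26 called features among those named, 20 no longer passed with the F distribution. With the median of all features set to 0, 2 fibroblast and matrix features were called higher, where 0 had been. The fitted values carry no replicate spread, and 57.0% of the features averaged under 10 fitted counts, so that small differences were not detectable at this depth.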
